A study of Mus musculus with 8 samples.

Results

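The genes described here mark epithelial sheets and the mesothelium, and they were followed in cardiac fibroblasts cultured in an osteogenic differentiation medium. The members were taken from the table by symbol: the keratins Krt7, Krt8, Krt18 and Krt19, the junction genes Pkp1 and Cdh3, the mesothelial surface genes Msln, Upk3b and Upk1b, and the transcription factor Wt1. All 10 symbols were found among the 24015 of the deposited table. They were selected on their normalized counts at all 4 times in these same libraries, so their levels and differences are a description and carry no test. The cells came from wild-type C57BL/6J mice labelled as 8 weeks of age, and every group shares that genotype and strain. One group was harvested before the medium (day 0), and the others after 7, 14 and 21 days in it, with 2 libraries per time and 8 in all. No untreated culture of matching age was among the samples, so time in culture and the medium cannot be told apart. Whether libraries of one time came from separate cultures or animals is not in the labels, so p-values measure the spread between these libraries, which may be technical.

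Mesothelium is a single layer of flat epithelial cells of mesodermal origin that lines the body cavities and covers the organs in them. On the heart that layer is the epicardium, which in the embryo gives rise to cardiac fibroblasts by epithelial to mesenchymal transition. Keratins form filaments from 1 type I and 1 type II chain, Krt18 with Krt8 and Krt19 with Krt7 or Krt8, and in simple epithelia they anchor at desmosomes. Mesothelial cells are known for carrying keratins together with mesothelin, uroplakins and Wt1 rather than the E-cadherin and Epcam of most other epithelia.

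Reads assigned to genes numbered 13399313 to 21883498 per library, and 15409 to 16200 genes were detected in each. Values are normalized counts, meaning reads per gene divided by a size factor for the library, and 13527 genes entered the tests, those reaching 10 normalized counts in 2 or more libraries. Of the 10 members 8 passed that filter. Krt8 and Krt18 did not. Krt19, Pkp1 and Cdh3 passed through their day 0 libraries alone, so for these genes a difference from day 0 was built into the filter. In bulk RNA, fewer cells of a type and less RNA per cell cannot be told apart.

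The table of promoters used here held 4 of the 10 members, and the 250 bases before the RefSeq start site are shown for Krt7 and Upk3b because one was higher and the other lower than day 0 at every later time. Both lie on the plus strand of the GRCm38.p6 build, Krt7 at chr15:101412153-101412402 and Upk3b at chr5:136038246-136038495. Capitals mark matches on either strand to 6 motifs: the TATA box TATAAA, the GC box GGGCGG, the AP-1 site TGANTCA, the Snail and Zeb E-box CACCTG, the TEAD site GGAATG and the Wt1 core GCGTGGG.
Krt7: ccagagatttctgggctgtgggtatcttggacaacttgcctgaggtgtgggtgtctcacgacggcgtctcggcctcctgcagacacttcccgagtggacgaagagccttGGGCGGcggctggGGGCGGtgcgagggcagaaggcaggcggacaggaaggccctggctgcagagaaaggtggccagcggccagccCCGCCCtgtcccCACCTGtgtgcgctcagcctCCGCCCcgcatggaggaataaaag
Upk3b: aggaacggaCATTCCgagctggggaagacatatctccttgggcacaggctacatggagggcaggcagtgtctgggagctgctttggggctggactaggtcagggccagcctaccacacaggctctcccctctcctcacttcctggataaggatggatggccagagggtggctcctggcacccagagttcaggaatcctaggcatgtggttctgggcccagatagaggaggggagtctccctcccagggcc
The Krt7 window had a GC content of 66.0% with 16 CpG sites, 4 GC boxes and 1 E-box, and the Upk3b window a GC content of 60.8% with 2 CpG sites and 1 TEAD site. Over 27025 promoter windows of the same length the median GC content was 52.0% with a median of 6 CpG sites. A GC box was present in 32.9% of those windows, the E-box in 17.1%, the TEAD site in 12.6%, the TATA box in 13.0%, the AP-1 site in 6.87% and the Wt1 core in 4.20%. A match describes letters in the window and is no sign of binding.

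The members did not move as a set. Krt19, Pkp1 and Cdh3 were present at day 0 and nearly gone from day 7 on, Upk3b was lower at every later time, and Msln and Krt7 were higher at every later time, while Upk1b peaked at day 14. At day 7, 3 of the 8 members that passed the filter were higher than day 0 and 4 lower at the threshold used for all genes (limma, adjusted p below 0.05), which 55.4% of all tested genes passed, 27.5% higher and 27.9% lower. At day 14 the counts were again 3 and 4, against 70.7% of all genes (35.2% higher and 35.6% lower), and at day 21 they were 2 and 4, against 59.4% (29.8% and 29.5%). Both libraries of one time lay beyond both of the other for 8 members between days 0 and 7, 8 between days 0 and 14 and 7 between days 0 and 21, as they did for 83.2%, 85.4% and 81.2% of all tested genes. The lower members were Krt19, Pkp1, Cdh3 and Upk3b each time. The first 3 of them entered the test through day 0 alone, so their calls and non-overlap were built in. These counts describe the members only, since the same contrasts were in view when they were picked.

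**Figure D1:**
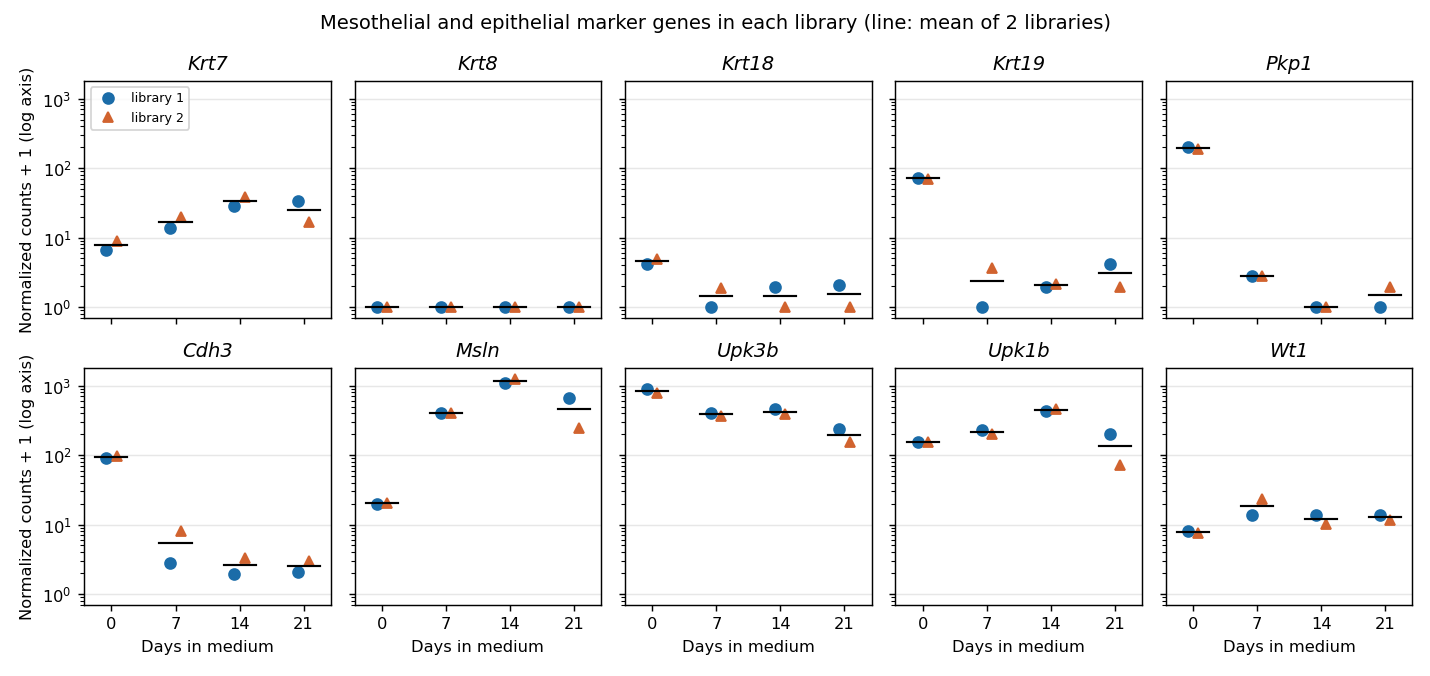
Normalized counts plus 1 (log axis) of the 10 genes in each library by days in medium, with circles for library 1, triangles for library 2 and a line at the mean of the 2. Krt19, Pkp1 and Cdh3 sit high at day 0 and near the bottom afterwards, Msln rises from 19.1 and 19.6 at day 0 to 1103 and 1254 at day 14, and the day 21 libraries stand apart for Msln and Upk1b.

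Of the 4 member keratins Krt19 was the only one with more than 10 reads in a day 0 library. It is a short type I keratin of simple epithelia and mesothelium. Its values were 70.9 and 69.3 normalized counts at day 0, 0 and 2.67 at day 7, then 0.911 and 1.17 at day 14, and finally 3.20 and 0.973 at day 21. Both day 0 libraries lay far above all 6 later ones. Reads over both libraries went from 142 at day 0 to 3, 2 and 4, ratios of 52.0 (95% counting interval 17.4 to 255) at day 7 and 68.6 (18.7 to 572) at day 14, and a 33.6-fold lower mean at day 21. Counting intervals here cover the sampling of reads only.

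Krt7, a type II keratin of simple epithelia and the mesothelium, followed another course from a low level. It stood at 5.57 and 7.84 normalized counts at day 0, 12.8 and 18.7 at day 7, then 27.3 and 37.4 at day 14, and finally 32.0 and 15.6 at day 21. Every later library was above both day 0 libraries, while the day 21 libraries overlapped those of days 7 and 14. The fitted log2 difference from day 0 was 1.11 ± 0.40 (SE) at day 7, 2.11 ± 0.40 at day 14 and 1.62 ± 0.40 at day 21, on the scale of log2(value + 1), which understates changes of low genes. The means were 2.35, 4.82 and 3.55 times that of day 0, over 13, 35, 62 and 46 reads in time order. Without the second day 21 library the day 21 difference was 2.12, and without the first it was 1.12.

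The members Krt18 and Krt8 gave almost no reads. Krt18, the type I partner of Krt8, had 4 and 3 reads in the day 0 libraries and 1 read in all at each later time, a ratio of 7.69 at day 7 with a counting interval of 0.988 to 346, so a change was not detectable at this depth. Krt8 is listed at 0 in all 8 libraries. A listed 0 need not mean a silent gene, because Hmgcs1, a sterol synthesis gene of nearly all cells, is at 0 throughout the same table. In the GENCODE M21 transcripts 29.7% of the 50-base words of Krt8 also occurred in another gene, mostly its pseudogene Krt8-ps, against 0.720% for Krt18 and 13.6% for Hmgcs1. The part of shared sequence in these zeros was not tested.

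The junction genes Pkp1 and Cdh3 were, like Krt19, almost confined to the day 0 libraries. Pkp1 encodes plakophilin 1, a protein of the desmosomal plaque that links keratin filaments to the junction. It measured 198 and 187 normalized counts at day 0, 1.82 and 1.78 at day 7, then 0 and 0 at day 14, and finally 0 and 0.973 at day 21. No later library came near the day 0 range. The mean was 107-fold lower at day 7. At day 14 no read was found against 392 at day 0, at least 126-fold lower with a floor of 3 reads over the group, and the single read at day 21 gave a ratio of 381 (95% counting interval 68.0 to 15088).

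Cdh3 encodes P-cadherin, a calcium-dependent adhesion receptor of basal epithelia. Its values were 90.0 and 96.7 normalized counts at day 0, 1.82 and 7.13 at day 7, then 0.911 and 2.34 at day 14, and finally 1.07 and 1.95 at day 21. The day 0 libraries were again the only high ones, and the later times overlapped one another. The mean at day 7 was 20.9-fold lower, and 3 reads at day 14 and 3 at day 21 gave ratios to day 0 of 60.2 (95% counting interval 20.3 to 295) and 60.6 (20.4 to 296). The day 7 libraries differed by 2 against 8 reads.

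Markers of proliferating cells moved over the same interval. Their summed level, over 8 genes including Mki67 and Top2a, was 6448 to 6703 normalized counts at day 0 and 389 to 539 in the later libraries, and all 8 passed the test as lower at days 7, 14 and 21. Macrophage markers, also 8 genes and none at 0 throughout, summed to 1050 and 1119 at day 0 and to between 9168 and 37129 later, and all 8 passed as higher each time. Fibroblast markers, 8 genes with none at 0, summed to 554337 to 567937 at day 0 and 195135 to 412610 later, a sum carried mostly by collagens. Taken singly they were split, with 4 higher and 3 lower than day 0 at day 7. The counts were 3 and 4 at day 14, and again 4 and 3 at day 21. Of all tested genes 27.5% were higher and 27.9% lower at day 7. The same shares were 35.2% and 35.6% at day 14, and 29.8% and 29.5% at day 21. At least 20 reads in both libraries were found for 5 macrophage markers at day 0, and for 6 proliferation markers at each later time. Col1a1, a fibrillar collagen, went from 242711 and 257184 normalized counts at day 0 to 64014 and 73190 at day 7, and the proteoglycan decorin, Dcn, from 9650 and 8890 to 34090 and 33754. The part of these shifts in the losses of Krt19, Pkp1 and Cdh3 was not tested.

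**Figure D2:**
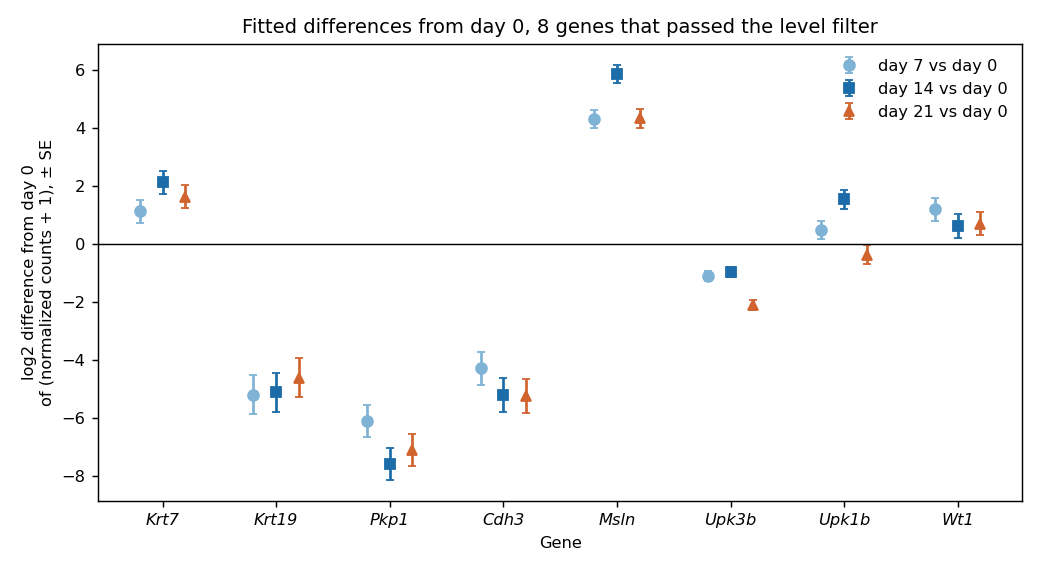
Fitted log2 differences from day 0 of normalized counts plus 1, with standard errors, for the 8 genes that passed the level filter at days 7, 14 and 21. Krt19, Pkp1 and Cdh3 lie below -4 at every time, where the size depends on the added 1, Msln lies above 4, and Upk1b is above 0 at days 7 and 14 and below it at day 21.

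Msln, mesothelin, is a cell surface glycoprotein by which normal mesothelium is commonly recognised. It was the member with the largest gain. Its values were 19.1 and 19.6 normalized counts at day 0, 404 and 400 at day 7, then 1103 and 1254 at day 14, and finally 674 and 246 at day 21. All later libraries exceeded day 0, day 14 was above every other library, and the day 21 libraries lay on either side of those of day 7. The mean was 20.8-fold above day 0 at day 7 (log2 4.31 ± 0.32), 60.9-fold at day 14 (log2 5.85 ± 0.32) and 23.8-fold at day 21 (log2 4.33 ± 0.32). The log2 difference was 1.55 ± 0.32 from day 7 to day 14 and -1.53 ± 0.32 from day 14 to day 21. Between days 7 and 21 it was 0.02 ± 0.32. The day 21 values rested on single libraries: without the first the log2 difference was 3.60 from day 0, -0.71 from day 7 and -2.25 from day 14, and without the second it was 5.05, 0.74 and -0.80.

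Upk1b is a tetraspanin of the uroplakin plaques that stiffen the bladder surface, and it is also made by mesothelium. It stood at 154 and 156 normalized counts at day 0, 232 and 199 at day 7, then 436 and 466 at day 14, and finally 198 and 72.0 at day 21. Days 7 and 14 lay wholly above day 0, and the day 21 libraries fell on both sides of it. The log2 difference from day 0 was 0.47 ± 0.32 at day 7, 1.53 ± 0.32 at day 14 and -0.37 ± 0.32 at day 21. From day 14 to day 21 the log2 difference was -1.91 ± 0.32, or -2.63 without the first day 21 library and -1.19 without the second. Without the first day 21 library the difference from day 0 at that time was -1.10, and without the second it was 0.35, so its sign rested on single libraries.

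Upk3b, a single-pass uroplakin strongly expressed in mesothelium, ran the other way. Its values were 887 and 777 normalized counts at day 0, 400 and 371 at day 7, then 456 and 392 at day 14, and finally 237 and 156 at day 21. All 6 later libraries were below day 0, days 7 and 14 overlapped, and day 21 lay below both. The mean was 2.16-fold lower than day 0 at day 7 (log2 -1.11 ± 0.17), 1.96-fold lower at day 14 (log2 -0.97 ± 0.17) and 4.24-fold lower at day 21 (log2 -2.11 ± 0.17). Upk3b and Msln, both used as mesothelial markers, thus differed from day 0 in opposite directions at each time.

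Wt1 encodes a zinc-finger transcription factor of the embryonic epicardium, mesothelium and kidney podocytes. It was close to the detection limit, at 7.17 and 6.54 normalized counts at day 0, 12.8 and 22.3 at day 7, then 12.8 and 9.35 at day 14, and finally 12.8 and 10.7 at day 21. All later libraries were above day 0, and the later times overlapped. The log2 difference from day 0 was 1.19 ± 0.40 at day 7, 0.60 ± 0.40 at day 14 and 0.70 ± 0.40 at day 21. These values rest on 14, 39, 22 and 23 reads in time order, and the counting interval of the ratio to day 0 was 1.35 to 5.06 at day 7 and included 1 at days 14 (0.795 to 3.44) and 21 (0.833 to 3.55).

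Between later times fewer members passed the threshold. From day 7 to day 14, 2 were higher (Msln and Upk1b) and 1 lower, against 52% of all genes (25% higher and 27% lower). The lower one was Pkp1, near the floor with 4 reads at day 7 and 0 at day 14. From day 14 to day 21, 3 were lower, against 34.5% of all genes (20.2% higher and 14.3% lower), and from day 7 to day 21, 1 was lower (Upk3b), against 8.74% (5.46% and 3.28%). Libraries did not overlap for 4 members between days 7 and 14, 3 between days 14 and 21 and 3 between days 7 and 21. The shares of all tested genes were 78.1%, 66.6% and 58.8%. Pkp1 was counted among the members between days 7 and 14, and between days 7 and 21 on 4 reads against 1. On reads recovered from the normalized counts, DESeq2 called 1 member higher than day 0 at day 7, where limma and edgeR called 3, and from day 7 to day 14 it called 1 member in all.

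Per kilobase of exon the order of the members turned over. At day 0 the levels were 236 ± 22.1 normalized counts per kilobase (SD, n = 2) for Upk3b, 81.8 ± 0.42 for Upk1b, 44.5 ± 0.70 for Krt19, 41.3 ± 1.71 for Pkp1, 21.3 ± 1.09 for Cdh3 and 8.89 ± 0.16 for Msln. No 2 neighbours in that order overlapped between libraries, and Krt18, Wt1 and Krt7 followed at 2.47, 2.04 and 1.64 on 7 to 14 reads each. By day 14 Msln led at 541 ± 48.9 per kilobase, followed by Upk1b at 238 ± 11.5, Upk3b at 120 ± 12.8, Krt7 at 7.91 ± 1.74 and Wt1 at 3.29 ± 0.72, with the rest below 1. At day 21 Msln stood at 211 ± 139, Upk1b at 71.2 ± 46.9 and Upk3b at 55.6 ± 16.3 per kilobase. Upk1b and Upk3b were not separable there, since their ratio per kilobase changed side between the libraries (Upk3b over Upk1b 0.644 and 1.16).

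The day 21 libraries stood apart for some of the mesothelial genes. Msln was 2.74-fold and Upk1b 2.75-fold higher in the first day 21 library than in the second, and Upk3b 1.52-fold. Of 12043 tested genes with at least 20 reads in both day 21 libraries, 16 were more than 2-fold higher in the first (0.133%). Another 27 were more than 2-fold higher in the second. At day 14 the same counts were 84 and 46 of 12049 genes, so day 21 was not the time with most such genes. Among the 16, Upk1b was at rank 5 and Msln at rank 6 of the ratios. Anxa8, an annexin also listed as a mesothelial marker, was at rank 4 with 282 against 102 normalized counts, and Ramp1, a subunit of calcitonin family receptors, was at rank 8 with 124 against 47.7. The highest 3 were Clic5 (3.50-fold), Npy6r and Eno3, and the 16 also held the muscle genes Myl4, Mustn1 and Trim72. These genes were singled out after their values were seen, and of 12 other mesothelial markers with enough reads 7 were higher in the first library, with a median ratio of 1.06. At the earlier times the ratio of the first to the second library, where both had 20 reads, was 0.880 to 1.01 for Msln, 0.934 to 1.17 for Upk1b and 1.08 to 1.16 for Upk3b.

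**Figure D3:**
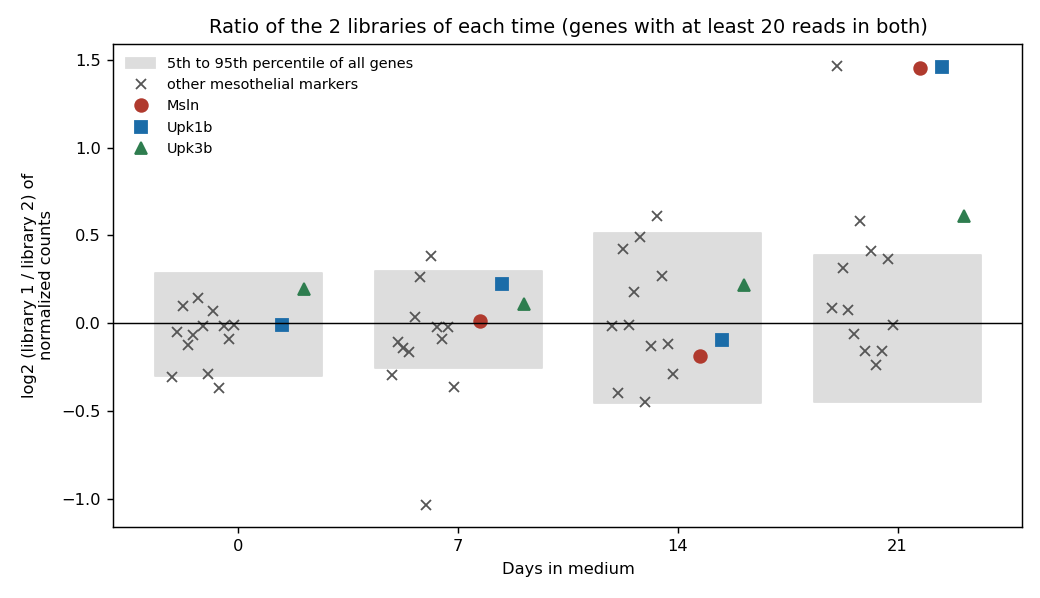
The log2 ratio of library 1 to library 2 within each time, for Msln, Upk1b, Upk3b and other mesothelial markers (crosses, genes with at least 20 reads in both), over a grey band from the 5th to the 95th percentile of all such genes. At day 21 Msln, Upk1b and 1 cross (Anxa8) lie well above the band and Upk3b just above it. At the other times these 3 members lie within it where they have a point. Msln has none at day 0, where its second library had fewer than 20 reads. Further crosses lie outside the band, such as Gpm6a (0.58) at day 21 and Lrrn4 (-1.04) at day 7.

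Although both levels differed between the day 21 libraries, the ratio of Msln to Upk1b was nearly the same in both. Per kilobase it was 0.108 and 0.110 at day 0, 1.51 and 1.75 at day 7, then 2.20 and 2.34 at day 14, and finally 2.97 and 2.97 at day 21. The ratio thus stood higher at each later time with no overlap between libraries, including the step from day 14 to 21 over which both genes fell. Msln over Upk3b per kilobase was 0.0349 and 0.0409 at day 0, 1.64 and 1.75 at day 7, then 3.93 and 5.19 at day 14, and finally 4.61 and 2.56 at day 21, with wide scatter at the end. Some other summed markers also differed between the day 21 libraries. Fibroblast markers were 339943 in the first and 412610 in the second, smooth muscle and pericyte markers 10313 and 13360, and endothelial markers 301 and 449 normalized counts. Macrophage markers were apart at day 14, at 19775 and 37129, but close at day 21, at 19522 and 19210. Cardiomyocyte markers summed to 10591 and 5857 there, nearly all of it Tnnt2 (10580 and 5849), with Myh6, the main myosin heavy chain of adult mouse cardiomyocytes, at 0 in all libraries. Across the other times that sum was 1137 to 1208 at day 0 and 11092 to 28791 at days 7 and 14. The part of these differences in the member values was not tested.

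Of 16 other mesothelial markers found in the table, 14 were tested. Against day 0, 5 were higher and 4 lower at day 7, then 5 and 7 at day 14, and finally 5 and 8 at day 21. Of all tested genes 27.5% were higher and 27.9% lower at day 7, near the shares of this list, and 35.2% and 35.6% at day 14 and 29.8% and 29.5% at day 21. The median log2 difference of the mesothelial list was 0.13, -0.32 and -0.39, beside medians over all tested genes of -0.01, 0.00 and 0.00. Prg4, the lubricating proteoglycan of serosal and joint surfaces, went from 131 and 132 normalized counts at day 0 to 2446 and 2603 at day 7 (log2 4.25 ± 0.16, limma adjusted p = 8.41e-10), and was still log2 3.89 ± 0.16 above day 0 at day 21. Lrrn4, a leucine-rich repeat membrane protein used as a mesothelial marker, went from 293 and 297 to 29.1 and 59.7 (log2 -2.79 ± 0.35, limma adjusted p = 2.72e-05) and stood at log2 -3.67 ± 0.35 at day 21.

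Aldh1a2, which makes retinoic acid in the epicardium, was lowest at day 7 (log2 -1.63 ± 0.13 against day 0) and then rose by log2 0.87 ± 0.13 to day 21 (limma adjusted p = 0.00186). Rspo1, a secreted enhancer of Wnt signalling, was log2 2.68 ± 0.36 above day 0 at day 14, and Nkain4 rose by log2 1.78 ± 0.19 at day 14 (limma adjusted p = 3.09e-06). Podxl, a sialomucin of mesothelium and podocytes, had 26.3 and 34.0 normalized counts at day 0 and 0 and 3.89 at day 21. It met the filter only with its day 0 libraries, so its difference from day 0 was built in. Anxa8 did not pass at days 7 and 14 (log2 0.09 and 0.02) and was lower at day 21 (log2 -1.45 ± 0.32, limma adjusted p = 0.00205). Its fall from day 7 to day 21 (log2 -1.54, adjusted p = 0.0133) was not called without the first day 7 library (adjusted p = 0.0810), without the second (0.104) or by DESeq2 (0.0666). Calb2, calretinin, and Itln1 gave 3 reads or fewer in all.

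Regulators of the epicardium were divided as well. Of 10 tested genes 4 were higher and 4 lower than day 0 at day 7, then 4 and 6 at day 14. At day 21 the counts were 4 and 4, and the medians were log2 0.10, -0.50 and 0.09 in time order. Among all tested genes 27.5% were higher and 27.9% lower at day 7. The same shares were 35.2% and 35.6% at day 14, and 29.8% and 29.5% at day 21. Aldh1a1 (log2 3.13 ± 0.12 at day 14, limma adjusted p = 4.26e-10), Tcf21 (log2 2.52 ± 0.10) and Hand2 (log2 1.53 ± 0.09) rose, the latter 2 being transcription factors of the fibroblast lineage and the heart field. Tbx18, a T-box factor of the epicardium, fell by log2 1.37 ± 0.09 at day 14 (limma adjusted p = 8.06e-08), and Scx, a tendon and valve factor, by log2 3.02 ± 0.28 at day 7. Gata5 had 0 reads throughout.

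Regulators of the epithelial to mesenchymal transition showed small differences. At day 7, 5 of 9 tested were higher than day 0 and 1 lower. The counts were 1 and 2 at day 14 and 4 and 1 at day 21, with medians of log2 0.32, 0.15 and 0.22 in time order. Over all tested genes the shares higher and lower were 27.5% and 27.9%, then 35.2% and 35.6%, and finally 29.8% and 29.5%. Tgfbr1, a receptor for TGF-beta, rose by log2 0.67 ± 0.14 at day 7 (limma adjusted p = 0.00163) and Snai2, a repressor of E-cadherin, by 0.53 ± 0.12 (adjusted p = 0.00319). Zeb2 and Zeb1, repressors that bind the same E-box, stood at log2 0.47 ± 0.15 (adjusted p = 0.0165) and 0.44 ± 0.12 (adjusted p = 0.00953) at day 7 by limma. Single libraries decided these smaller calls. The Snai2 call was lost without the second day 0 library (adjusted p = 0.0534), the Zeb1 call without either day 0 library or the first of day 7 (0.0518 to 0.0751), and the Zeb2 call without the second day 0 library or either of day 7 (0.0521 to 0.127). Twist1 was at log2 -0.08 ± 0.11 and was not called.

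Among desmosome genes the desmosomal cadherins were hardly detected. Of 14 desmosome genes 7 were tested, of which 1 was higher and 3 lower at day 7, and 1 and 3 at day 14. At day 21, 4 were lower, and the medians were log2 -0.11, -0.10 and -0.29 in time order. Lower genes made up 27.9%, 35.6% and 29.5% of all tested genes at these times, and higher ones 27.5%, 35.2% and 29.8%. Desmoplakin, Dsp, which ties the plaque to keratin filaments, went from 34.2 and 62.8 normalized counts at day 0 to 12.8 and 9.81 at day 7 (log2 -1.96 ± 0.41, limma adjusted p = 0.00137). Plakophilin 2, Pkp2, fell by log2 1.25 ± 0.21 at day 7 (adjusted p = 0.000334), and plakoglobin, Jup, by 1.98 ± 0.13 at day 14 (adjusted p = 5.16e-08). Perp rose by log2 0.94 ± 0.18 at day 14. Dsg1a and Dsc1 had 0 reads, and Dsg2, Dsg3, Dsc2 and Dsc3 were below 3 normalized counts in every library.

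Of 10 classical cadherins and catenins, 7 were tested, and 1 was higher and 5 lower at day 7. The counts were 1 and 6 at days 14 and 21, with medians of log2 -0.53, -1.63 and -0.85 in time order. Higher genes made up 27.5%, 35.2% and 29.8% of all tested genes at these times, and lower ones 27.9%, 35.6% and 29.5%. N-cadherin, Cdh2, the main cadherin of mesothelial and mesenchymal cells, measured 9724 and 9259 at day 0 and 3452 and 2124 at day 14 (log2 -1.81 ± 0.17, limma adjusted p = 1.04e-06). It was log2 0.96 ± 0.17 higher at day 21 than at day 14. Its smaller fall at day 7 (log2 -0.58 ± 0.17, adjusted p = 0.0102) was not called without the first day 0 library (adjusted p = 0.0684) or the second day 7 library (0.0581). Cdh13, T-cadherin, rose by log2 1.99 ± 0.19 at day 7 (adjusted p = 2.19e-06), and Cdh5, the endothelial cadherin, fell by 3.76 ± 0.34 at day 14. E-cadherin, Cdh1, had 2 reads at day 0 and none later.

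Most genes that define other epithelia were at or near 0. Of 19 tight junction and polarity genes, 9 were tested, with 5 lower at each of days 7, 14 and 21. At day 14, 1 was higher, and the medians were log2 -0.41, -1.05 and -0.91 in time order. Lower genes made up 27.9%, 35.6% and 29.5% of all tested genes at these times, and higher ones 27.5%, 35.2% and 29.8%. Cldn3, a claudin of simple epithelia, had 15.9 and 26.1 normalized counts at day 0 and 0 and 0.892 at day 7, but it entered the test through the day 0 libraries alone, as did Cgn, so 2 of the tested genes of this list were kept only because day 0 was high. Cxadr, a junctional receptor, fell by log2 1.83 ± 0.23 at day 14 (adjusted p = 1.88e-05). Epcam had 1 read in all. Of 12 epithelial transcription and splicing regulators 2 were tested, and Esrp2, a splicing factor of epithelia, fell by log2 1.27 ± 0.22 at day 14 (adjusted p = 0.000216), while Grhl2, Ovol2, Elf3 and Esrp1 had 0 reads.

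Other keratins were scarce, with 7 of 20 at 0 throughout and 2 tested. Krt80 fell from 27.9 and 32.7 normalized counts at day 0 to 18.2 and 14.0 at day 14 (log2 -0.88 ± 0.34, limma adjusted p = 0.0334), a call lost without either day 0 library (adjusted p = 0.0677 and 0.148), without the second day 14 library (0.143), by DESeq2 (0.144), with no level filter (0.0535) and after removal of a length and GC trend (0.151). Krt10 was log2 1.11 ± 0.24 higher at day 14 and fell back by 1.13 ± 0.24 to day 21. Among filament genes of other classes, 8 were tested, and 1 was higher and 5 lower at day 7. The counts were 1 and 6 at days 14 and 21, with medians of log2 -0.75, -0.96 and -1.03 in time order. Over all tested genes the shares higher and lower were 27.5% and 27.9%, then 35.2% and 35.6%, and finally 29.8% and 29.5%. Nestin, Nes, went from 1932 and 2067 normalized counts to 115 and 136 at day 7 (log2 -3.99 ± 0.18, adjusted p = 3.42e-09), and lamin B1, Lmnb1, fell as well (log2 -3.66 ± 0.15). Vim, the main filament of mesenchymal cells, was at 149253 and 156112 at day 0 and was not called at day 7 (log2 -0.21 ± 0.15). It was lower at day 14 (log2 -0.49 ± 0.15, limma adjusted p = 0.00878), a call lost with no level filter (0.0508) and when the second day 0 library was left out (0.0562). Of 4 further uroplakins only Upk3bl was tested, and it entered through the day 14 libraries alone, with 1, 12, 28 and 11 reads in time order. It was singled out after its values were seen.

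**Figure D4:**
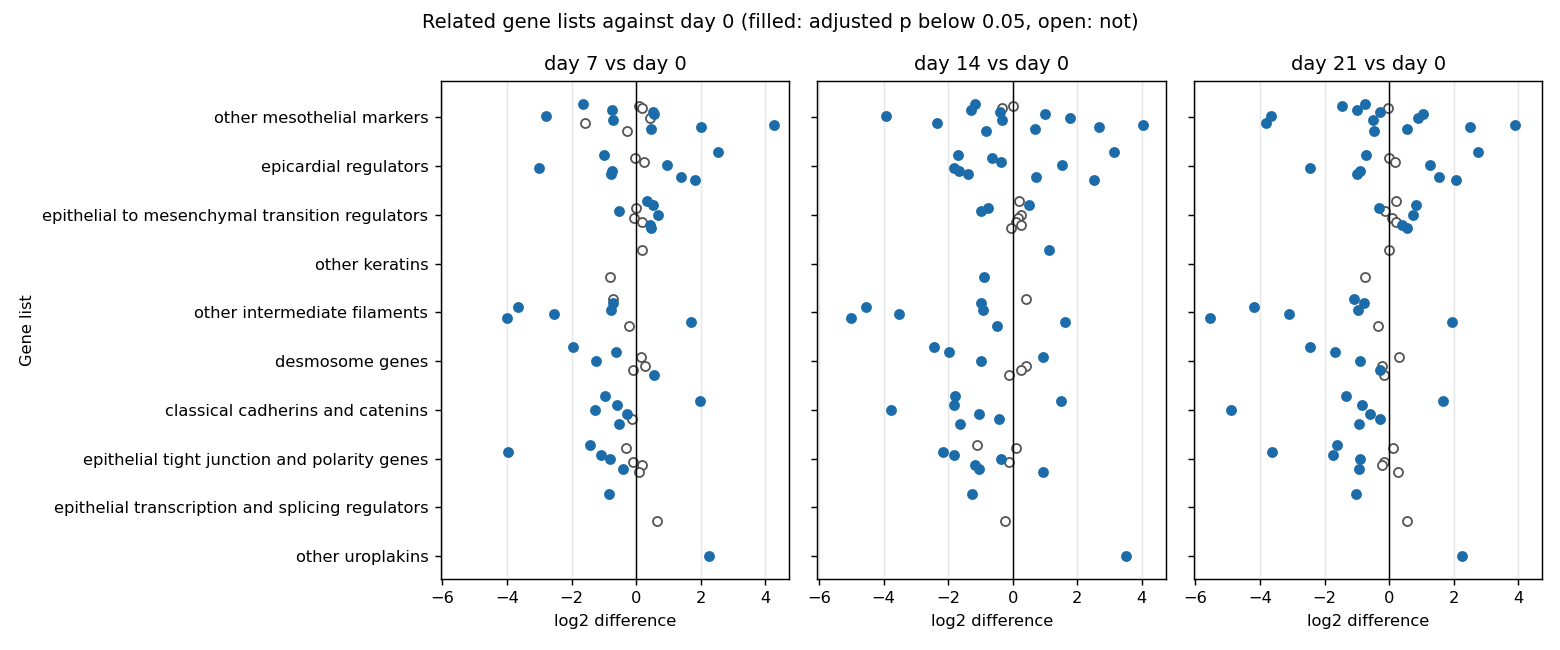
Log2 differences from day 0 of the tested genes in 10 related lists at days 7, 14 and 21, with 1 point per gene, filled where limma's adjusted p was below 0.05. The mesothelial and epicardial lists spread to both sides of 0, and most filled points of the tight junction, cadherin and filament lists lie below it.

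Genes whose course was most like a member's were sought over the 8 libraries by Pearson correlation of log2(value + 1), among 11235 genes and for the 5 members with a mean of at least 20 normalized counts. The points share 4 times, so these values mostly describe time means. Nearest to Msln was Ramp1 (r = 0.998, n = 8 libraries), at means of 4.35, 83.8, 260 and 85.8 normalized counts in time order. Riok3 and Ciao1 followed (r of 0.997 and 0.995, n = 8), with Riok3 at means of only 1376 at day 0 and 2029 at day 14. Nearest to Pkp1 were Rangap1, Rgs12 and Kif20b (r of 0.999, 0.998 and 0.998, n = 8), the last a kinesin of cell division that went from a mean of 160.1 at day 0 to 24.8 at day 7. For Cdh3 the closest were Tubgcp2, Plscr3 and the kinetochore gene Casc5 (r of 0.995, 0.995 and 0.993, n = 8). Correlation takes no account of the size of a change. Between days 0 and 7 the mean of Rangap1 went from 2386 to 1038, and that of Tubgcp2 from 741 to 525. Upk3b had lower values, led by Bhlhb9 at r = 0.951 (n = 8), and Upk1b by Mapk11 at r = 0.968 (n = 8).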

How the data were processed

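RNA was measured by sequencing in 8 libraries of cultured mouse cardiac fibroblasts, 2 at each of 4 times. Per the submitters' processing notes, TopHat2 2.0.11, HTSeq 0.6.1, DESeq and the mm9 build were used, with roles and order not given in the sources used here. The deposited signal is a normalized count per gene, that is, reads divided by 1 size factor per library; all values came out as whole reads within 0.01 reads. The labels' protocols describe total RNA and standard Illumina libraries; strand use in counting is not given in the sources used here.

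The 13527 genes reaching 10 normalized counts in 2 or more libraries were fitted with limma 3.58.1 (trend, R 4.3.3) on log2(value + 1), all 8 libraries in 1 fit with 4 residual degrees of freedom, with Benjamini-Hochberg adjustment over all tested genes and a threshold of 0.05 in each of 6 comparisons. The fit was tested on simulated data. Ratios of pooled reads have exact 95% intervals, and a floor of 3 reads over a group stands in for 0. Exon lengths came from GENCODE M21 by symbol (23639 genes, 98.4%), without coordinates. Alternatives were other pseudocounts and filters, edgeR 4.0.16, DESeq2 1.42.0, a length and GC trend, 2 times alone, the replicate number as a block, and each library left out. The members and the related lists were chosen with earlier results of these data known. Related genes were named where they passed the threshold with a mean of at least 20 normalized counts in the higher group, at most 4 per list and comparison, plus at most 2 that did not pass and genes at 0. Genes with only a few reads, such as Cdh1 and Epcam, were named after their values were seen. Genes like a member were the 3 with the highest correlation, for members with a mean of at least 20, among genes reaching a mean of 50 at their highest time.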

Additional observations from a re-analysis of the deposited data

How the results depend on the processing

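No result changed sign past its threshold under any setting run. The count of genes called between days 7 and 21 was 1182, and 739 with no level filter; between days 14 and 21 it was 4664, and 2635 with the 2 times fitted alone, which took the related genes called there from 29 to 18. Leaving out 1 library at a time gave 262 to 2173 genes from day 7 to day 21, 2303 to 5750 from day 14 to day 21, 4837 to 7326 from day 7 to day 14, and 5565 to 8151, 8335 to 9745 and 6416 to 8649 against day 0 at days 7, 14 and 21. Related genes called ranged likewise from 5 to 20, 15 to 32, 28 to 45, 36 to 50, 45 to 54 and 42 to 54, against 10, 29, 44, 46, 53 and 51 with all libraries. With all libraries 69 related genes were tested. The shares of all tested genes called were then 8.74%, 34.5%, 52%, 55.4%, 70.7% and 59.4% in the same order. With 1 library left at a time, its spread is assumed to be that of the other times. The cause of these shifts was not tested, and some of these fits also had fewer samples.

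Deviations of same-numbered libraries were nearly uncorrelated between times, from -0.0356 to 0.0737, which cannot settle whether the samples were paired. With a replicate block 7443, 9522 and 7973 genes were called against day 0 at days 7, 14 and 21, and 6960, 4521 and 949 from day 7 to 14, 14 to 21 and 7 to 21. Members with 10 reads or fewer at a time, Krt18, Krt19, Pkp1 and Cdh3, are limited by depth.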
